A study of Mus musculus with 8 samples.

Results

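The effect of DRG2 knockdown under interferon-gamma was read from 4 of the 8 RNA sequencing libraries of the series. They were taken by line and treatment: 2 libraries of B16F10 cells with a short hairpin against Drg2 (shDRG2) and 2 of B16F10 cells with the empty hairpin vector pLKO. Both groups had been given 24 hours of interferon-gamma (IFN-γ), dosed at 5 ng/ml. The other 4 libraries, pLKO and shDRG2 cells without IFN-γ, gave the spread of the model and the same knockdown comparison without stimulation. All 13500 genes that passed a filter on low counts were compared, of 45556 named genes. Each line is present once, so a difference between the lines is a difference between these cultures of them, and effects of the hairpin other than loss of DRG2 cannot be told apart from that loss. The labels used here do not say whether the shDRG2 line is 1 clone or a pool, nor whether replicates were separate cultures. The p-values therefore measure the spread between these samples, which may be technical.

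B16F10 is a pigmented mouse melanoma line that grows in C57BL/6 mice. DRG2, developmentally regulated GTP-binding protein 2, belongs to a conserved family of GTP-binding proteins and has been tied to endosomal traffic and cell growth. IFN-γ binds its receptor, activates JAK kinases, and so turns on IRF1 and, later, genes of antigen presentation, cell-autonomous defence and PD-L1, the checkpoint ligand encoded by Cd274. Promoters of these genes often hold a GAS or an ISRE element, the letters that factors of the pathway bind.

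Drg2 itself (ENSMUSG00000020537.9, GRCm38 chromosome 11, 60454591 to 60468754, plus strand) had a level of 72.3 and 64.3 CPM (counts scaled to library size) in the stimulated pLKO libraries and of 6.46 and 7.66 CPM in the stimulated shDRG2 libraries. Without IFN-γ its level was 76.3 and 68.6 CPM in pLKO and 8.68 and 9.34 CPM in shDRG2 cells, so the groups were apart under both treatments. The fall with IFN-γ was 3.27 on the log2 scale (SE 0.115, n = 2 per group, adjusted p = 7.8e-07). Its relative Drg1 (0.14) and the partner genes Rwdd1 (0.04) and Zc3h15 (-0.02), whose proteins stabilise the DRG proteins, gave no call. The 4 libraries with IFN-γ hold 27582297 and 32814097 counts (pLKO) and 30935756 and 36654519 counts (shDRG2). Averaged over genes, the squared differences between replicates were at least 11.9 times those of counting noise, a mean in which abundant genes weigh most. For abundant genes precision was set by the replicates more than by depth, while genes of few counts are limited by counting too. All 7 melanocyte markers were detected in every library, with a summed level of 11057 and 10961 CPM in pLKO and 9621 and 10124 CPM in shDRG2 cells with IFN-γ.

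Among the 13500 genes, 226 (1.67%) were called at an adjusted p under 0.05, of which 68 (0.504%) were higher and 158 (1.17%) lower in shDRG2 cells. Of the 226, 87 differed at least 2-fold. An unadjusted p under 0.05 was found for 1616 of the 13500 genes, and 6875 of the 13500 had a positive log2 fold change. The libraries of the 2 groups did not overlap for 5467 genes (40.5%), and they did not overlap for any of the 226. The genes nearest the threshold were Fam49a and Gm5930 inside it, both at an adjusted p of 0.0498, and Mtss1 and Gsdmc outside it, both at 0.0505. The number of calls moved with the libraries and the fit: it was 44 without replicate 1 and 58 without replicate 2 of the shDRG2 cells, 86 without replicate 1 and 123 without replicate 2 of the pLKO cells, and 124 when the 4 IFN-γ libraries were fitted alone. Other fits gave more, 325 with DESeq2, 653 with no filter on low counts and 675 with a term for the replicate number (the replicate block). All 226 calls remained with the block. Below, edgeR stands for the fit without that term unless the block is named. Changes of the gene lists with the block are summarised in the last section. All 44 calls of the fit without replicate 1 of the shDRG2 cells, and 117 of the 124, were among the 226.

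**Figure D1:**
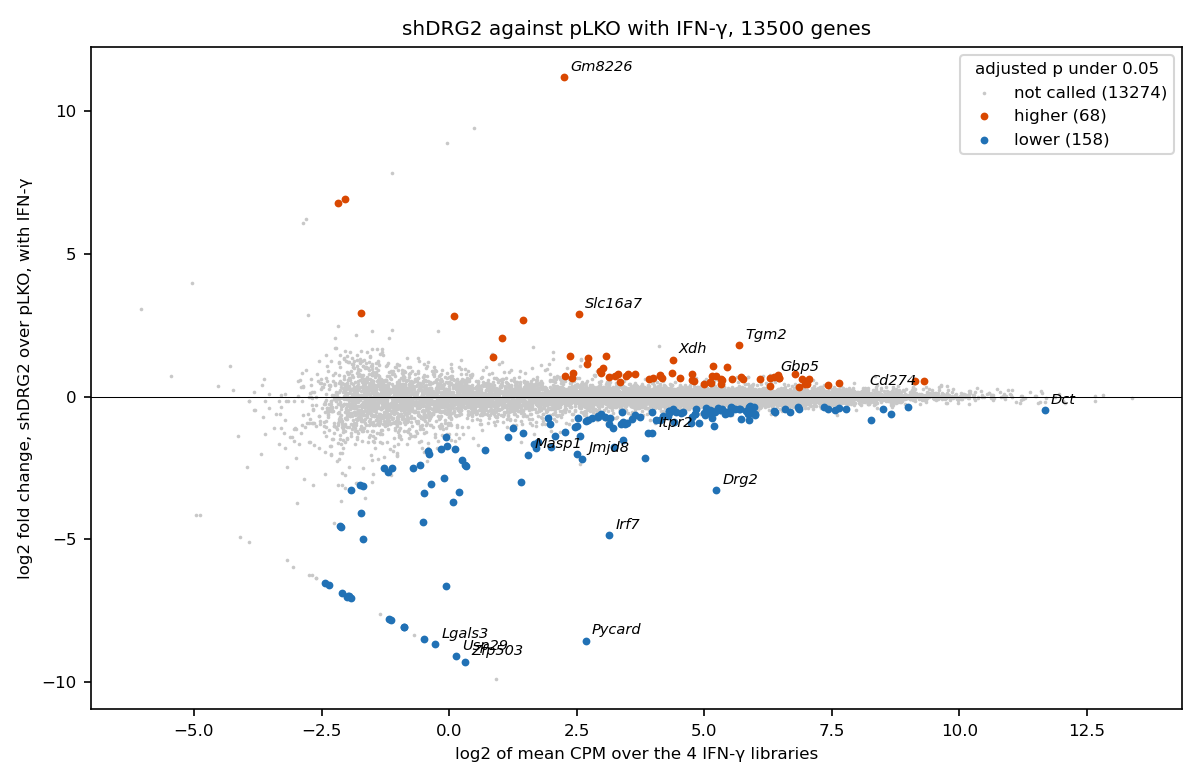
Log2 fold change of shDRG2 over pLKO cells with IFN-γ (vertical axis) against the log2 of the mean CPM over the 4 libraries with IFN-γ (horizontal axis), one point per gene, with 1 gene at 0 counts in all 4 left out. Called genes are coloured, 68 higher in orange and 158 lower in blue; Pycard and Irf7 stand below the other blue points of their level, and fitted values of genes with 0 counts in a group, such as Zfp503 and Gm8226, depend on the prior count and are no measured fold.

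The transcription factors of the interferon response gave 1 call, in Irf7, which encodes the factor that amplifies type I interferon production. Irf7 (chromosome 7, 141262706 to 141266481, minus strand) was at 16.1 and 17.8 CPM in pLKO cells with IFN-γ, against 0.633 and 0.547 CPM in shDRG2 cells with IFN-γ. Unstimulated pLKO cells had 0.489 and 0.594 CPM, and both unstimulated shDRG2 libraries had 0 counts. The level in shDRG2 cells with IFN-γ was thus near that of unstimulated pLKO cells. The fall was 4.84 (log2, SE 0.21, adjusted p = 7.43e-06), and the call held under all 15 alternative fits. The other 9 tested genes of the interferon regulatory factor list gave none: Irf1, an early target of the pathway, was at 579 and 582 CPM in pLKO and 731 and 723 CPM in shDRG2 cells (0.33, 95% interval 0.06 to 0.59, adjusted p = 0.272). Irf8, a factor of myeloid cells that IFN-γ also induces, was at 197 and 235 CPM against 214 and 213 CPM (-0.02, -0.24 to 0.21).

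Upstream of these factors, none of the 11 tested genes for the IFN-γ receptor, JAKs and STATs was called by the edgeR quasi-likelihood test or by DESeq2, and 1 had an unadjusted p under 0.05. The list's median log2 fold change was 0.06, against 0.00 over all genes. The 17 feedback inhibitors, the SOCS, PIAS and phosphatase genes that switch cytokine signals off, gave no call by either test, 2 unadjusted p under 0.05 and a median of 0.06.

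Gbp5, a guanylate-binding protein that acts against intracellular microbes and in inflammasome assembly, rose. It was at 60.4 and 67.1 CPM in pLKO cells with IFN-γ and at 103 and 101 CPM in shDRG2 cells with IFN-γ, and between 0 and 0.0775 CPM in all 4 unstimulated libraries. The rise was 1.6-fold (log2 0.68, SE 0.0883, adjusted p = 0.00488). It was the 1 call among 10 tested guanylate-binding proteins, whose median was 0.13; the abundant Gbp2 was at 0.19 (interval -0.01 to 0.38). Leaving out replicate 1 of the shDRG2 cells moved the adjusted p of Gbp5 to 0.0651. Other effectors of cell-autonomous defence gave no calls by edgeR or DESeq2: 0 of 12 immunity-related GTPases (median 0.14, 1 unadjusted p under 0.05), 0 of 46 antiviral effectors (median 0.15, 12 unadjusted), 0 of 7 interferon-induced PARPs (median 0.09, 0 unadjusted) and 0 of 7 genes of PYHIN proteins and cytosolic DNA sensing (median -0.11, 0 unadjusted). Of the 46 antiviral effectors 40 had positive values, as had 6875 of the 13500 genes. Over all 13500 genes 1616 had an unadjusted p under 0.05, beside the 12 of 46 here. Members of the antiviral list ranged from -0.78 to 0.91. Ifit2, whose protein binds foreign RNA, was at 373 and 561 CPM against 744 and 544 CPM (0.46, interval 0.06 to 0.87, adjusted p = 0.325), and its groups overlapped.

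Promoter sequence is shown for 4 genes to set the motifs of the IFN-γ pathway beside the values: Gbp5 and Slamf8, which rose and which were near 0 without IFN-γ, and Irf7 and Pycard, the deepest falls among called genes of at least 5 CPM. Each runs 5′ to 3′ from 250 bases before to 50 bases after the RefSeq start (GRCm38.p6), and capitals mark a match to the GAS letters TTCNNNGAA or the ISRE letters TTTC, NN and TTTC in a row, searched on both strands. Gbp5 lies at chr3:142496684-142496983 (plus strand), Slamf8 at chr1:172590519-172590818 (minus), Irf7 at chr7:141266375-141266674 (minus) and Pycard at chr7:127993818-127994117 (minus).
Gbp5 promoter: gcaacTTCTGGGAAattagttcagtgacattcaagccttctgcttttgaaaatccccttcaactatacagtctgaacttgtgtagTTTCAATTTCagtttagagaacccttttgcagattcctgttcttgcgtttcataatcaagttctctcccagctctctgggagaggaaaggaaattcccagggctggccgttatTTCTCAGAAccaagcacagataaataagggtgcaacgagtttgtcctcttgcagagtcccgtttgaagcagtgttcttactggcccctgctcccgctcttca
Slamf8 promoter: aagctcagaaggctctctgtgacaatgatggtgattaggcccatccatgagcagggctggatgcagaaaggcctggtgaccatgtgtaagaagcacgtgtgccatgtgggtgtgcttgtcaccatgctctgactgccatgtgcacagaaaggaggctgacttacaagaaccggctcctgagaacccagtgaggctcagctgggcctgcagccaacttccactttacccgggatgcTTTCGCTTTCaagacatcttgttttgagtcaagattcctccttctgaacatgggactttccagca
Irf7 promoter: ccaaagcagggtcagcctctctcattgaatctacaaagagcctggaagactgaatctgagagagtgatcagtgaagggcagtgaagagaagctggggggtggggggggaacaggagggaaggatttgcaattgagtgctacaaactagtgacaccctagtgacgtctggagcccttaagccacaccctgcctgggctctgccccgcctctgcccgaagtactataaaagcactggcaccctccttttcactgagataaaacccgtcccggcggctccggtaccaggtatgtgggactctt
Pycard promoter: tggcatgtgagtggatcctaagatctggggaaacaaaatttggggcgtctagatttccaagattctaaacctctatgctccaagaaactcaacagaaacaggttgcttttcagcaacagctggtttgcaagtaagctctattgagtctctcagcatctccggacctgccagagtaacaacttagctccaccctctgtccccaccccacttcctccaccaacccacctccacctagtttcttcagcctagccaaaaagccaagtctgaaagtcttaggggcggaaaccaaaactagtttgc
The Gbp5 window holds 2 GAS matches and 1 ISRE match, the Slamf8 window 1 ISRE match, and those of Irf7 and Pycard none, which says only that these letters are not in these windows. Among the 9429 tested genes with a promoter in the table, 8.38% held a GAS match and 3.74% an ISRE match. Of the 50 higher genes with a promoter, 5 (10%) held a GAS match and 6 (12%) an ISRE match. Of the 116 lower genes, 5 (4.31%) held a GAS match and 2 (1.72%) an ISRE match. The 6 higher genes with an ISRE match are Gbp5, Slamf8, Scube3, Mylk, Pde1b and Cyp4v3. The 4 windows shown were picked and do not represent the called genes, most of which held neither match. Tgm2 and Xdh had no promoter in the table. Slamf8, a receptor of the SLAM family known from macrophages and chosen here after its values were seen, was at 19.1 and 20.5 CPM in pLKO and 36.5 and 33 CPM in shDRG2 cells with IFN-γ (0.81, SE 0.122, adjusted p = 0.0142), and at most 0.0313 CPM without IFN-γ. The call of Slamf8 did not hold in every alternative.

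In the MHC class II pathway, which loads peptides for CD4 T cells, H2-DMb1 rose. This gene encodes a chain of H2-DM, the chaperone that exchanges peptides on class II molecules. Its level was 62.3 and 74 CPM in pLKO and 107 and 109 CPM in shDRG2 cells with IFN-γ (0.66, SE 0.104, adjusted p = 0.0129), with no overlap between the groups. Its near copy H2-DMb2 stood at 0.629 CPM or less in these libraries, and reads of the pair may be shared. Of the 13 tested class II genes 12 had positive values, against 6875 of all 13500 genes, and the median was 0.46. Ciita, the master activator of class II genes, was at 89 and 95.4 CPM against 120 and 119 CPM (0.37, adjusted p = 0.0878). The invariant chain gene Cd74 was at 192 and 298 CPM against 413 and 396 CPM (0.72, adjusted p = 0.124), and the class II chain gene H2-Aa at 38.3 and 68.9 CPM against 82.6 and 94.6 CPM (0.72, adjusted p = 0.173). In all 3 the lower shDRG2 library lay above the higher pLKO library, and the pLKO libraries of Cd74 and H2-Aa lay far apart. The groups did not overlap in 10 of the 13 class II genes, nor in 5467 of all 13500 genes (40.5%). DESeq2 called 6 of the 13, namely Ciita, H2-Aa, H2-Ab1, H2-DMa, H2-DMb1 and H2-Eb1, where edgeR called 1. The edgeR fit with a replicate block called 7, these 6 and Cd74. The call of H2-DMb1 ended without replicate 1 of the shDRG2 cells (adjusted p = 0.108).

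MHC class I, which presents peptides to CD8 T cells, gave no call among 18 chain and loading genes by edgeR or DESeq2, with 2 at an unadjusted p under 0.05 and a median of 0.13. B2m, the common light chain, was at 1136 and 1293 CPM in pLKO and 1291 and 1266 CPM in shDRG2 cells (0.07, interval -0.15 to 0.29). The 6 immunoproteasome genes gave no call, no unadjusted p under 0.05 and a median of 0.11. None of 9 tested chemokine and cytokine genes was called by edgeR, 2 had an unadjusted p under 0.05, and DESeq2 called Cxcl10, the chemokine that draws CXCR3-bearing T cells. Cxcl10 was at 778 and 723 CPM in pLKO and 1017 and 921 CPM in shDRG2 cells with IFN-γ (0.37, interval 0.18 to 0.56, adjusted p = 0.0677). Without IFN-γ edgeR called Cxcl10 higher in shDRG2 cells, at 1.07 (adjusted p = 0.000565). The difference between its effects with and without IFN-γ was -0.70 (unadjusted p = 0.000194), but it missed the threshold after adjustment (0.656).

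Cd274 was at 248 and 270 CPM in pLKO and 298 and 293 CPM in shDRG2 cells with IFN-γ. Its groups did not overlap, as in 40.5% of all genes, and it gave no call (0.19, interval -0.02 to 0.40, adjusted p = 0.48). The interval leaves room for a rise of up to 0.40 and does not show that the levels were equal. Of the 13 tested checkpoint ligands 1 was called, Lgals3, which encodes the lectin galectin-3. It held 95 counts over both pLKO libraries with IFN-γ (2.3 and 1.01 CPM) and 0 counts in both shDRG2 libraries, which puts it at least 35.3-fold lower when the empty group is set to a floor of 3 counts in sum. That call ended without replicate 1 of the shDRG2 cells (adjusted p = 0.069). The B7 family gene Cd276 was at 20.1 and 21.7 CPM against 29.6 and 26.7 CPM (0.43, interval 0.19 to 0.66, adjusted p = 0.0868). None of 36 genes for the trafficking, glycosylation and turnover of PD-L1 was called by edgeR, 3 had an unadjusted p under 0.05 and DESeq2 called Mgat5.

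**Figure D2:**
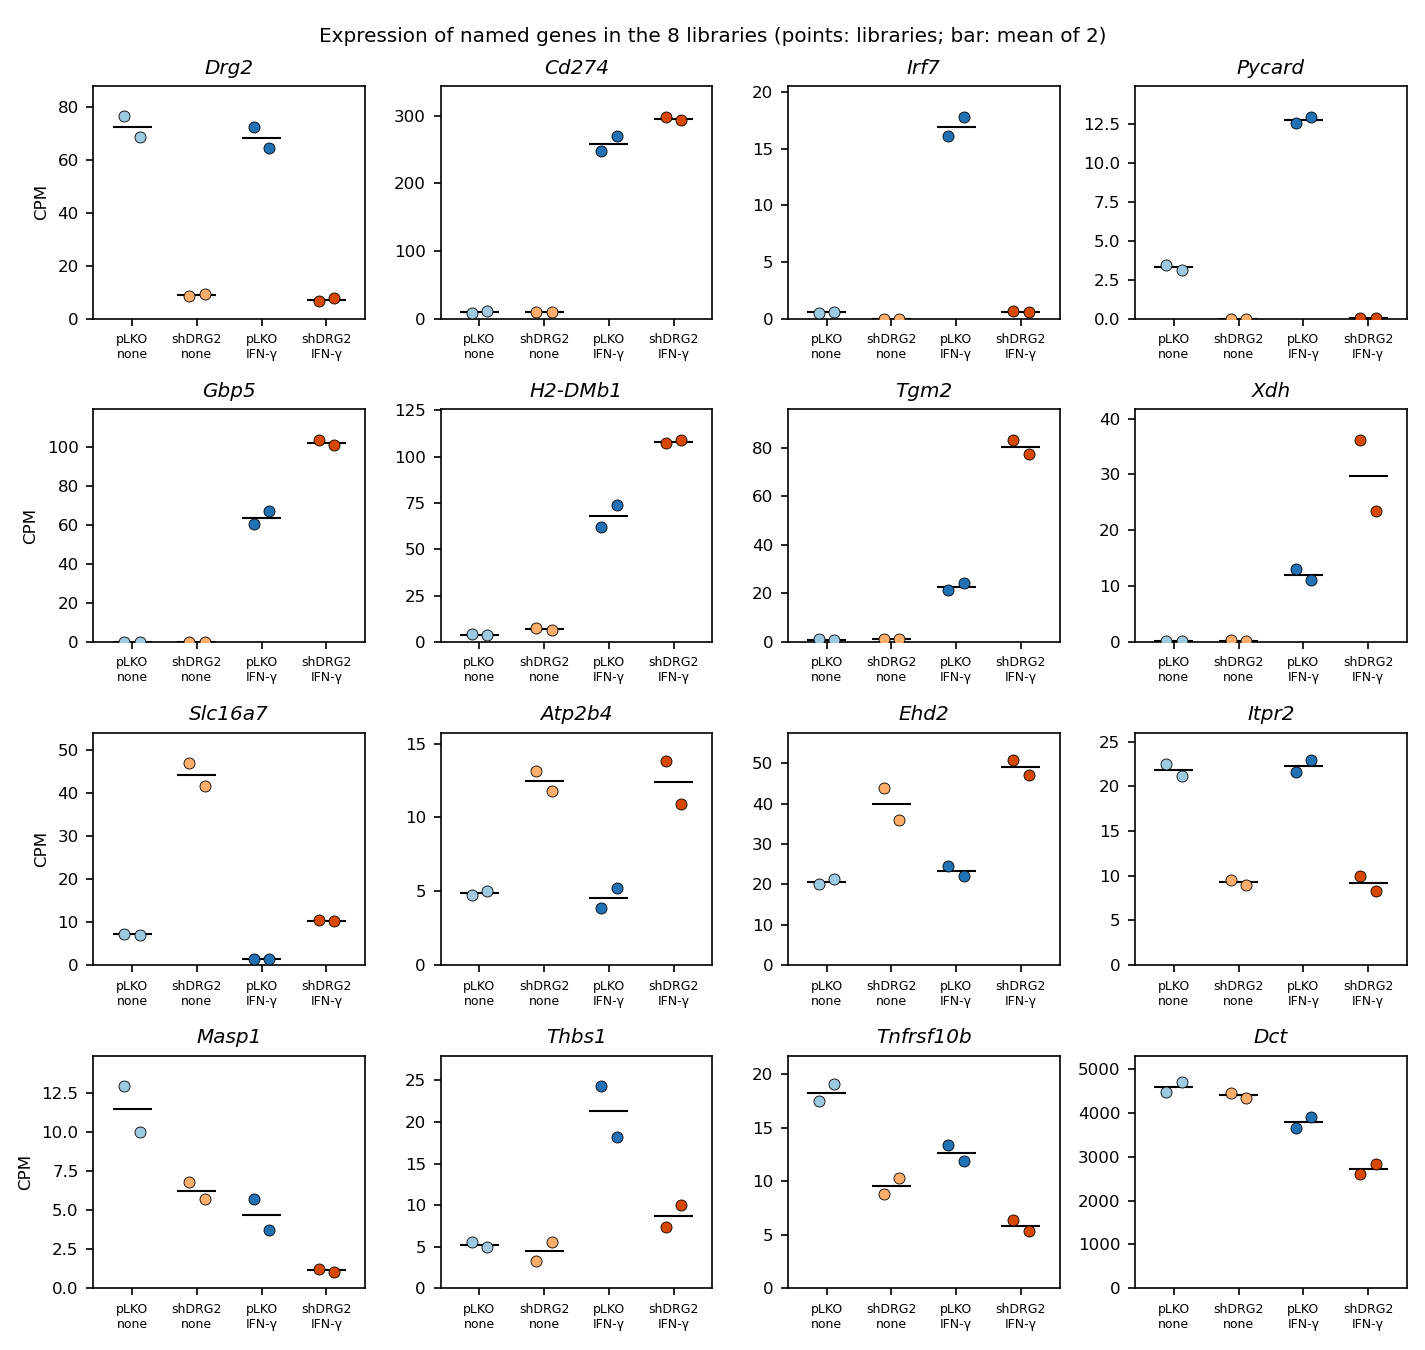
CPM of 16 genes in the 8 libraries, each panel with its own linear axis from 0; points are libraries and bars the mean of 2. Irf7 and Pycard are near 0 in all shDRG2 libraries, Tgm2 and Xdh are high where IFN-γ is given and higher in shDRG2 cells, and Slc16a7, Atp2b4, Ehd2 and Itpr2 differ between the lines under both treatments.

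Pycard, the gene of ASC, the adaptor that joins inflammasome sensors to caspase-1, had the deepest fall among called genes of at least 5 CPM. Pycard (chromosome 7, 127989708 to 127993867, minus strand) was at 12.6 and 12.9 CPM in pLKO cells with IFN-γ and at 0.0333 and 0.0274 CPM in shDRG2 cells, which is 1 count in each of those libraries. The group sums were 763 against 2 counts, a ratio of 425 per library size with a 95% counting interval of 117 to 3513. Unstimulated, it stood at 3.45 and 3.13 CPM in pLKO cells and had 0 counts in both shDRG2 libraries. The adjusted p with IFN-γ was 3.91e-06 and the call held in every alternative. The antisense gene Gm45205 overlaps 12.8% of the exon bases of Pycard.

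Of the called genes that averaged 5 CPM or more, Slc16a7 and Tgm2 had the largest rises. Tgm2 encodes tissue transglutaminase, an enzyme that crosslinks proteins inside and outside cells. It was at 21.4 and 24 CPM in pLKO cells with IFN-γ and 83 and 77.5 CPM in shDRG2 cells, against 0.751 to 1.21 CPM in the unstimulated libraries of both lines. The rise was 3.53-fold (log2 1.82, SE 0.107, adjusted p = 2.4e-05), and 0.32 without IFN-γ (adjusted p = 0.659). The difference between these effects was 1.5 with an unadjusted p of 0.000171, but missed the threshold after adjustment (0.656). The antisense gene Gm20412 overlaps 13.7% of its exon bases. Slc16a7, a monocarboxylate transporter that carries lactate and pyruvate, was at 1.41 and 1.37 CPM in pLKO and 10.4 and 10.1 CPM in shDRG2 cells with IFN-γ. Its rise was 7.38-fold (2.88, SE 0.137, adjusted p = 5.2e-06) and resembled the 2.64 measured without IFN-γ, where its levels were higher, at 7.18 and 7.04 against 46.9 and 41.5 CPM.

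Xdh, Mpeg1 and Tmie were low in unstimulated cells and rose in shDRG2 cells with IFN-γ. Xdh, the gene of xanthine oxidoreductase, which makes uric acid, was at 13 and 11.1 CPM in pLKO and 36.1 and 23.4 CPM in shDRG2 cells (1.30, SE 0.212, adjusted p = 0.0152), against at most 0.28 CPM without IFN-γ. Mpeg1, which encodes the pore-forming perforin-2, was at 27.2 and 29.5 CPM against 69.8 and 46.9 CPM (1.04, SE 0.174, adjusted p = 0.0286) and at 0 in all 4 unstimulated libraries. Tmie, a membrane protein gene known from hair cells of the inner ear, was at 3.15 and 4.29 CPM against 9 and 10.1 CPM (1.35, adjusted p = 0.0248). In Xdh and Mpeg1 replicate 1 of the shDRG2 cells lay above replicate 2, and without it their adjusted p became 0.155 and 0.116. That of Tmie became 0.174 without replicate 2.

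Mpeg1 is also a marker of macrophages, so other markers of immune cells were read beside it. Of the 19 immune cell markers 9 were at 0 in all 8 libraries, among them Cd3e, Cd4, Ms4a1, Itgam, Itgax, Adgre1, Ncr1 and S100a9. Their summed level was 28.8 and 31.0 CPM in pLKO and 70.9 and 47.9 CPM in shDRG2 cells with IFN-γ, nearly all of it Mpeg1, and 0.698 to 1.35 CPM without IFN-γ. Mpeg1 was thus detected where Itgam and Adgre1, which mark macrophages, were at 0. Of the 19 markers 3 passed the filter on low counts, Mpeg1, Cd68 and Cd79a. Cd68, also a macrophage marker, was lower in shDRG2 cells (-0.93, adjusted p = 0.367) and Cd79a higher (0.52, adjusted p = 0.793), both without a call by edgeR.

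Calcium and membrane genes followed. Atp2b4, a calcium pump of the plasma membrane, was at 3.86 and 5.21 CPM in pLKO and 13.8 and 10.9 CPM in shDRG2 cells with IFN-γ (1.44, SE 0.175, adjusted p = 0.00379). Ehd2, an ATPase that shapes the necks of caveolae, was at 24.5 and 22 CPM against 50.9 and 47.2 CPM (2.11-fold, log2 SE 0.109, adjusted p = 0.00141). Both calls held in every alternative, and both genes were also called without IFN-γ, at 1.35 and 0.95. Cacnb3, a subunit of voltage-gated calcium channels, rose by 0.74 (13.2 and 12.8 to 23.5 and 20.2 CPM). Itpr2 and Itpr3, receptors that release calcium from the endoplasmic reticulum, fell. Itpr2 was at 21.6 and 22.9 CPM in pLKO and 9.96 and 8.34 CPM in shDRG2 cells (-1.29, SE 0.115, adjusted p = 0.000672), and Itpr3 at 3.19 and 3.26 against 1.67 and 1.4 CPM. These 4 were the calls among 39 calcium handling genes (10.3%, against 1.67% of all 13500 genes), 2 higher and 2 lower, with a list median of 0.01. The call of Itpr2 held throughout, while 12 of 15 alternatives ended that of Itpr3 and 4 that of Cacnb3, with an adjusted p of 0.191 for Cacnb3 and 0.252 for Itpr3 at the highest among the leave-outs.

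Scube3, Ghr and F3 also rose. Scube3, a secreted protein that acts in BMP signalling, was at 2.86 and 2.77 CPM in pLKO and 7.36 and 7.6 CPM in shDRG2 cells (1.41, SE 0.146, adjusted p = 0.00163), the 1 call among 30 TGF-β and BMP genes. Ghr, the growth hormone receptor, was at 5.49 and 5.24 against 11.9 and 9.57 CPM (1.00, adjusted p = 0.0215). F3, the tissue factor that starts coagulation, was at 20.2 and 22.6 against 31.6 and 33.3 CPM (0.60, adjusted p = 0.0299). Further rises named by the rule lay between 0.81 and 1.15: the microtubule-binding Map7d2, the glycosyltransferase Gcnt2, the transcription factor Dach1, the metalloreductase Steap1 and the myelin protein Pmp22. That of Map7d2 held in every alternative. Without replicate 1 of the shDRG2 cells the adjusted p was 0.193 for Ghr, 0.153 for Dach1 and 0.127 for Steap1. Without replicate 2 it was 0.187 for F3, 0.214 for Gcnt2 and 0.0642 for Pmp22. The calls of Ghr, Dach1 and F3 ended whichever of the 4 IFN-γ libraries was left out, and that of Gcnt2 ended in 7 of the 15 alternatives.

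Transport and metabolism gave calls in both directions. Of 200 tested solute carriers 4 rose and 3 fell (3.5% called, against 1.67% of all 13500 genes). Slc44a3, of the choline transporter-like family, was at 76.6 and 83.6 CPM in pLKO and 144 and 136 CPM in shDRG2 cells (0.80, SE 0.0768, adjusted p = 0.000935), and Slc40a1, the iron exporter ferroportin, at 104 and 104 against 161 and 160 CPM (0.63, adjusted p = 0.00517). Slc2a4, the insulin-responsive glucose transporter, rose by 0.80, and the amino acid carrier Slc7a8 (-0.73), the bicarbonate carrier Slc4a7 (-0.45) and Slc12a9 (-0.63) fell. The transferrin gene Trf was at 5.71 and 6.52 against 2.53 and 2.16 CPM (-1.39, adjusted p = 0.00357), though Gm20425 covers 63.5% of its exon bases on the same strand, so reads may be shared. Among 37 glutathione and NRF2 genes Gsta4 (0.67) and Me1 (0.40) rose, with a list median of 0.12. Glycolysis and hypoxia genes had a median of 0.18 and 31 of 40 positive values, against 6875 of all 13500 genes. In that list Slc16a7 was called higher and the aldolase gene Aldoc lower (1.89 and 2.35 to 0.4 and 0.383 CPM, log2 -2.43). None of 29 cholesterol genes was called by edgeR, and DESeq2 called Abca1. Of the 29, 7 had an unadjusted p under 0.05, against 1616 of all 13500 genes. The calls of Slc44a3 and Trf held in every alternative. Those of Me1 and Aldoc ended whichever of the 4 IFN-γ libraries was left out. Leaving out replicate 1 of the shDRG2 cells moved the adjusted p of Slc40a1 to 0.0645, of Slc4a7 to 0.182, of Slc7a8 to 0.224, of Slc12a9 to 0.298 and of Aldoc to 0.244. Leaving out replicate 2 moved it to 0.212 for Slc2a4 and 0.165 for Me1, and leaving out pLKO replicate 1 moved that of Gsta4 to 0.223. The call of Gsta4 ended in 12 of the 15 alternatives, that of Slc12a9 in 10 and that of Slc7a8 in 8 of 14, among them the fits scaled by library size only.

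Among called genes that averaged 5 CPM or more, Jmjd8, 2310057J18Rik, Pnma2 and Mest had the deepest falls after Pycard, Irf7 and Drg2. Jmjd8, a JmjC-domain protein of the endoplasmic reticulum, was at 9.79 and 10.2 CPM in pLKO and 2.47 and 2 CPM in shDRG2 cells with IFN-γ (-2.17, SE 0.192, adjusted p = 0.000672), with 39.3% of its exon bases covered by Stub1 on the other strand. Pnma2, a retrotransposon-derived neuronal antigen gene, was at 8.31 and 9.96 against 2.23 and 2.32 CPM (-2.00, SE 0.178, adjusted p = 0.000672). Mest, a paternally expressed imprinted gene, was at 16.6 and 12.3 against 3.4 and 5.03 CPM (-1.76, SE 0.202, adjusted p = 0.00293), and Copg2 covers 23.1% of its exon bases. Jmjd8, Pnma2 and Mest fell without IFN-γ too, and their calls with IFN-γ held in every alternative they were tested in. The other imprinted gene that fell was Usp29, with 130 counts in the pLKO and 0 in the shDRG2 libraries. By the floor used for Lgals3 it was at least 48.2-fold lower. Mest and Usp29 were 2 of 15 tested imprinted genes (13.3% called, against 1.67% of all 13500 genes). Smaller falls named by the rule were in the endosomal sorting adaptor Pacs1 (-1.06), the aminopeptidase Anpep (-1.03), the kinase scaffold Akap12 (-0.97) and the serpin Serpinb6b (-1.40), and the mitochondrial ribosomal protein gene Mrps6 rose (0.63). Without replicate 2 of the shDRG2 cells the adjusted p was 0.0598 for Pacs1, 0.177 for Anpep and 0.213 for Serpinb6b, and without replicate 1 it was 0.182 for Akap12 and 0.0716 for Mrps6. The calls of Anpep and Serpinb6b also ended with the 4 IFN-γ libraries alone. That of Serpinb6b ended whichever of those 4 libraries was left out. The protein-coding 2310057J18Rik, outside the naming rule and chosen after its values were seen, was at 23 and 23.7 against 5.83 and 4.65 CPM (-2.16, adjusted p = 3.9e-05).

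Masp1, Abca12, Car6 and Kctd12 fell with IFN-γ and were negative but not called without it, and the difference between the treatments passed for none of them. Masp1, a protease of the lectin pathway of complement, was at 5.71 and 3.72 CPM in pLKO and 1.23 and 1.07 CPM in shDRG2 cells with IFN-γ (-2.03, SE 0.264, adjusted p = 0.00488), and differed by -0.87 without it (adjusted p = 0.0877). Abca12, a lipid transporter, was at 52.4 and 45.3 against 25.5 and 22.1 CPM (-1.04) with IFN-γ, and at 608 and 508 against 512 and 408 CPM without it (-0.28, not called). Car6, a secreted carbonic anhydrase, was at 19.8 and 11.6 against 4.73 and 6.04 CPM (-1.52), and differed by -0.63 without IFN-γ. Kctd12, an auxiliary subunit of GABA-B receptors, was at 9.57 and 7.52 against 3.3 and 3.31 CPM (-1.37), with -0.56 without IFN-γ and with Gm26778 over 62.8% of its exon bases on the other strand. The difference between the effects had an unadjusted p of 0.00666 for Masp1, 0.00264 for Abca12, 0.0255 for Car6 and 0.00419 for Kctd12, and none passed after adjustment (adjusted p = 1). Leaving out replicate 2 of the shDRG2 cells moved the adjusted p of the call to 0.0642 for Masp1 and 0.0763 for Abca12, and leaving out replicate 1 to 0.203 for Car6.

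Matrix and adhesion genes gave 1 rise, Tgm2, and 4 falls among 64 tested (7.81% called, against 1.67% of all 13500 genes), with a median of -0.14. Of the 64, 30 had an unadjusted p under 0.05, against 1616 of all 13500 genes. Thbs1, the matricellular protein thrombospondin 1, was at 24.4 and 18.2 CPM in pLKO and 7.36 and 9.98 CPM in shDRG2 cells with IFN-γ (-1.29, SE 0.229, adjusted p = 0.0232), and between 3.3 and 5.62 CPM in the 4 unstimulated libraries. Its relative Thbs3 was at 9.42 and 9.23 against 5.53 and 5.88 CPM (-0.71), the laminin chain gene Lama5 at 1.67 and 1.74 against 0.433 and 0.52 CPM (-1.82), and the integrin Itga4, which binds VCAM-1, at 36.6 and 39.4 against 23.9 and 27.6 CPM (-0.56). Of 47 axon guidance genes 3 (6.38%) fell, the ephrin receptor Ephb4 (21.2 and 21.1 to 12.2 and 11.7 CPM, log2 -0.82) and the semaphorins Sema3c (-2.5) and Sema6d (-0.69). Of 59 cadherins and protocadherins Cdh13 (-2.38) and Pcdh17 (-0.83) fell (3.39% called), with a median of -0.21. Tgfa, an EGF receptor ligand (-2.5), and Lgr6, an R-spondin receptor of the Wnt pathway (-2.84), fell at levels of about 1 CPM. Tgfa was the 1 fall among 30 receptor tyrosine kinase and ligand genes, where Ghr was the 1 rise. Lgr6 was the 1 call among 29 Wnt genes. Without replicate 1 of the shDRG2 cells the adjusted p was 0.211 for Thbs1 and Thbs3, 0.193 for Lama5, 0.335 for Itga4, 0.321 for Sema6d and 0.149 for Lgr6. Without replicate 2 it was 0.0642 for Ephb4, 0.262 for Sema3c, 0.255 for Cdh13, 0.219 for Pcdh17 and 0.221 for Tgfa. Those of Thbs3, Lama5 and Pcdh17 lost their calls whichever of the 4 IFN-γ libraries was left out. Thbs3 and Pcdh17 also lost them with these 4 libraries alone. The calls of Itga4 and Sema6d each ended in 10 of the 15 alternatives, including the other 2 edgeR scalings. Those of Cdh13, Sema3c and Tgfa each ended in 7, with DESeq2 among them for Tgfa.

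p53 targets gave 3 falls and no rise among 37 tested genes by edgeR (8.11% called, against 1.67% of all 13500 genes), with a median of -0.10. DESeq2 called 5 of them, Plk2 and Ptp4a3 in addition. By edgeR 12 of the 37 had an unadjusted p under 0.05, against 1616 of all 13500 genes. Of the 37, 10 had positive values, against 6875 of all 13500 genes. Cdkn1a, which encodes p21, a brake on the cell cycle, was at 111 and 110 CPM in pLKO and 82.4 and 82.2 CPM in shDRG2 cells (-0.42, SE 0.0808, adjusted p = 0.0305). Tnfrsf10b, the receptor for the death ligand TRAIL, was at 13.3 and 11.9 against 6.33 and 5.39 CPM (-1.11, SE 0.138, adjusted p = 0.0041), and Eda2r, another TNF receptor family member, at 17.8 and 15.4 against 9.46 and 10.6 CPM (-0.72, adjusted p = 0.0216). Dusp4, a phosphatase induced by ERK signalling, fell from 77.1 and 55.4 to 36.6 and 41.1 CPM (-0.77, adjusted p = 0.0478), the 1 call among 17 ERK output genes. Dnajc3, a chaperone of the endoplasmic reticulum, fell from 198 and 199 to 147 and 144 CPM (-0.45, adjusted p = 0.0122). Proliferation genes gave no calls by edgeR or DESeq2: 0 of 40 for S phase (median -0.04, 0 unadjusted p under 0.05) and 0 of 41 for G2/M (median -0.02, 2 unadjusted), where Mki67 was at 434 and 487 against 310 and 402 CPM (-0.37, interval -0.72 to -0.02, adjusted p = 0.37). The calls of Cdkn1a, Eda2r, Dusp4 and Dnajc3 ended without replicate 1 of the shDRG2 cells, at adjusted p of 0.218, 0.2, 0.36 and 0.116, and that of Tnfrsf10b without replicate 2, at 0.0531. The calls of Cdkn1a and Dnajc3 ended whichever of the 4 IFN-γ libraries was left out. That of Eda2r ended in 4 and that of Dusp4 in 7 of the 15 alternatives, the 4 IFN-γ libraries alone among them for both. Tnfrsf10b and Dnajc3 lie on chromosome 14, whose genes were mostly lower in shDRG2 cells.

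Dct, the melanin pathway enzyme dopachrome tautomerase, fell from 3659 and 3911 CPM in pLKO to 2605 and 2846 CPM in shDRG2 cells with IFN-γ (-0.47, SE 0.0862, adjusted p = 0.0254). Without IFN-γ the level was 4466 and 4716 CPM in pLKO and 4462 and 4350 CPM in shDRG2 cells (-0.06), so the nearest libraries of the lines were almost equal. Other pigmentation genes gave no call: Mitf, the master regulator of melanocytes, was at 362 and 401 against 266 and 311 CPM (-0.40, adjusted p = 0.072), while Pmel was at 0.02, Tyrp1 at -0.04 and Tyr at 0.25. Of the 30 tested pigmentation genes 8 had positive values, against 6875 of all 13500 genes, and the median was -0.07. The call of Dct ended in 5 of 14 alternatives, the 4 IFN-γ libraries alone and each fit without 1 of these 4. Without replicate 1 of the shDRG2 cells its log2 fold change was -0.41. Dct lies on chromosome 14, where most tested genes had negative values. DESeq2 called Dct and Mitf.

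Some genes were silent in 1 of the groups. Both shDRG2 libraries with IFN-γ had 0 counts in 15 of the 158 lower genes, 14 of them protein-coding. Zfp503, a zinc finger repressor of development, held 149 counts over the pLKO libraries (2.52 and 2.47 CPM) and was at least 55.3-fold lower. By the same floor Ubqln2, a ubiquitin-like shuttle protein linked to motor neuron disease, was at least 31.2-fold lower, the GTPase-activating protein gene Arhgap32 and the acid-sensitive potassium channel Kcnk5 at least 23.7-fold and the membrane protein Xk at least 19.3-fold. The diamine oxidase gene Aoc1 had 54 counts over the pLKO libraries and none in the shDRG2 libraries. The collagen gene Col26a1 was at least 11.9-fold and the adhesion molecule gene Cadm3 at least 11.5-fold lower. Of these 8, all but Kcnk5 and Aoc1 had 0 counts in both unstimulated shDRG2 libraries as well. The calls of Xk, Col26a1 and Cadm3 ended without replicate 1 of the shDRG2 cells. They ended in 2, 3 and 6 of the 15 alternatives, the 4 IFN-γ libraries alone among them for Cadm3. These bounds, like those of Lgals3 and Usp29, put only the empty group at a floor and take the pLKO counts as observed. They cover neither the counting error of the pLKO counts nor the spread between replicates, and reads were counted without molecular identifiers. The 3 higher genes with 0 counts in both pLKO libraries with IFN-γ, Gm8226, Rps19-ps2 and Gm14414, are processed pseudogenes, whose reads can be shared with near copies.

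Chromosome 14 differed from the other chromosomes. Of its 436 tested genes 42 were called lower and 3 higher, and 88.5% had negative values, with a median of -0.27. On the other 19 chromosomes with at least 100 tested genes the medians lay between -0.04 and 0.05 and 0.224% to 2.38% of genes were called lower. Split by position into 4 equal sets of genes, it had medians of -0.29, -0.29, -0.24 and -0.26 from start to end. The median without IFN-γ was -0.28, and the difference between the treatments was not tested. Relative to the pLKO mean with IFN-γ, the median over 331 of its genes was -0.25 and -0.26 in the shDRG2 libraries with IFN-γ, -0.31 and -0.31 in those without, and -0.03 and -0.05 in unstimulated pLKO libraries. Tnfrsf10b, Pnma2, Kctd12, Dct, Dnajc3, Slc4a7, Slc7a8, Pcdh17, Rps24, Lgals3, Zfp503 and Kcnk5 lie there, and the part of the chromosome's shift in their falls was not tested. The falls of Pnma2, Kctd12 and Tnfrsf10b, at -2.00, -1.37 and -1.11, were deeper than the chromosome's median. Those of Dct (-0.47), Dnajc3 (-0.45) and Slc4a7 lay just past the chromosome's lower quartile of -0.38. That of Rps24, a ribosomal protein gene (-0.36, adjusted p = 0.0434), was close to the median. Its call ended in 9 of 14 alternatives, with an adjusted p of 0.364 without replicate 1 of the shDRG2 cells. Dach1, at 0.84, rose against it. With the genes of chromosome 14 left out before the fit, 160 genes were called, 60 higher and 100 lower.

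**Figure D3:**
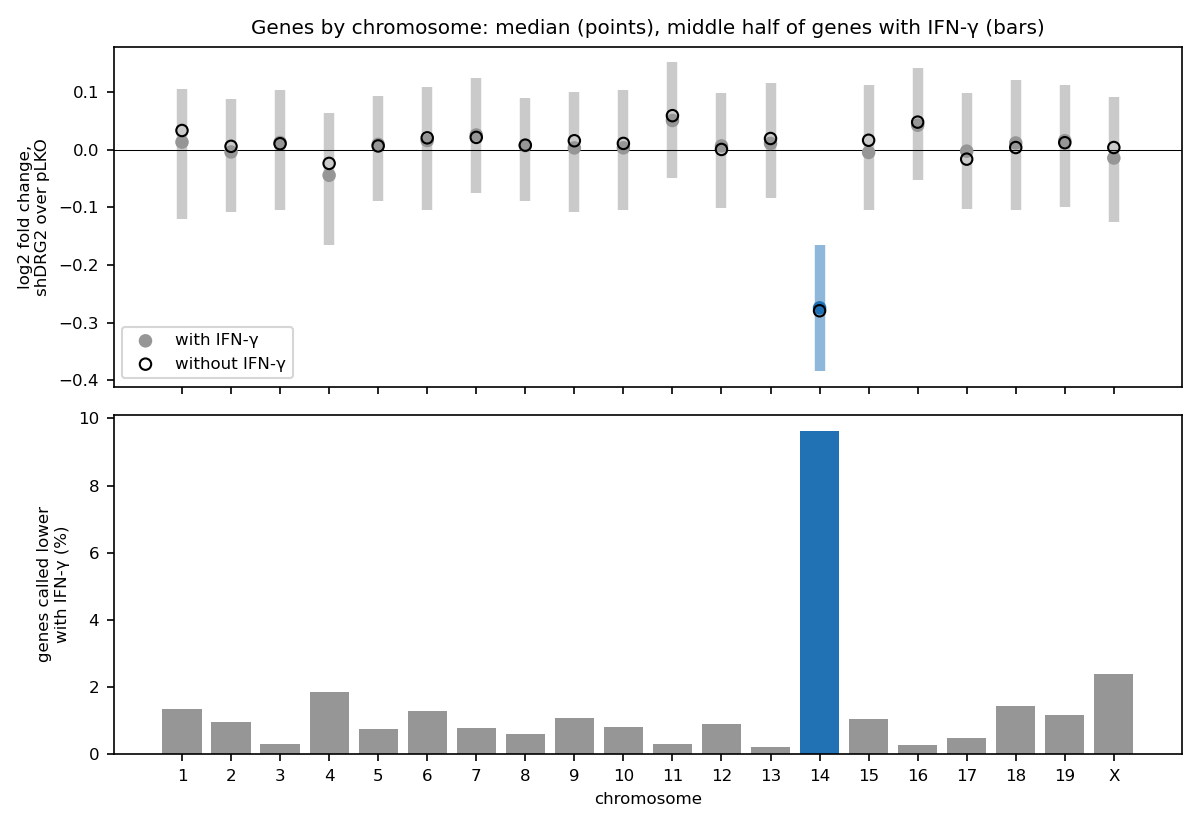
Upper panel: median log2 fold change of shDRG2 over pLKO cells for the tested genes of each chromosome, with IFN-γ (filled) and without (open), with bars from the lower to the upper quartile. Lower panel: percent of genes called lower with IFN-γ; chromosome 14 (blue) has a median of -0.27 and 9.63% called lower.

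**Figure D4:**
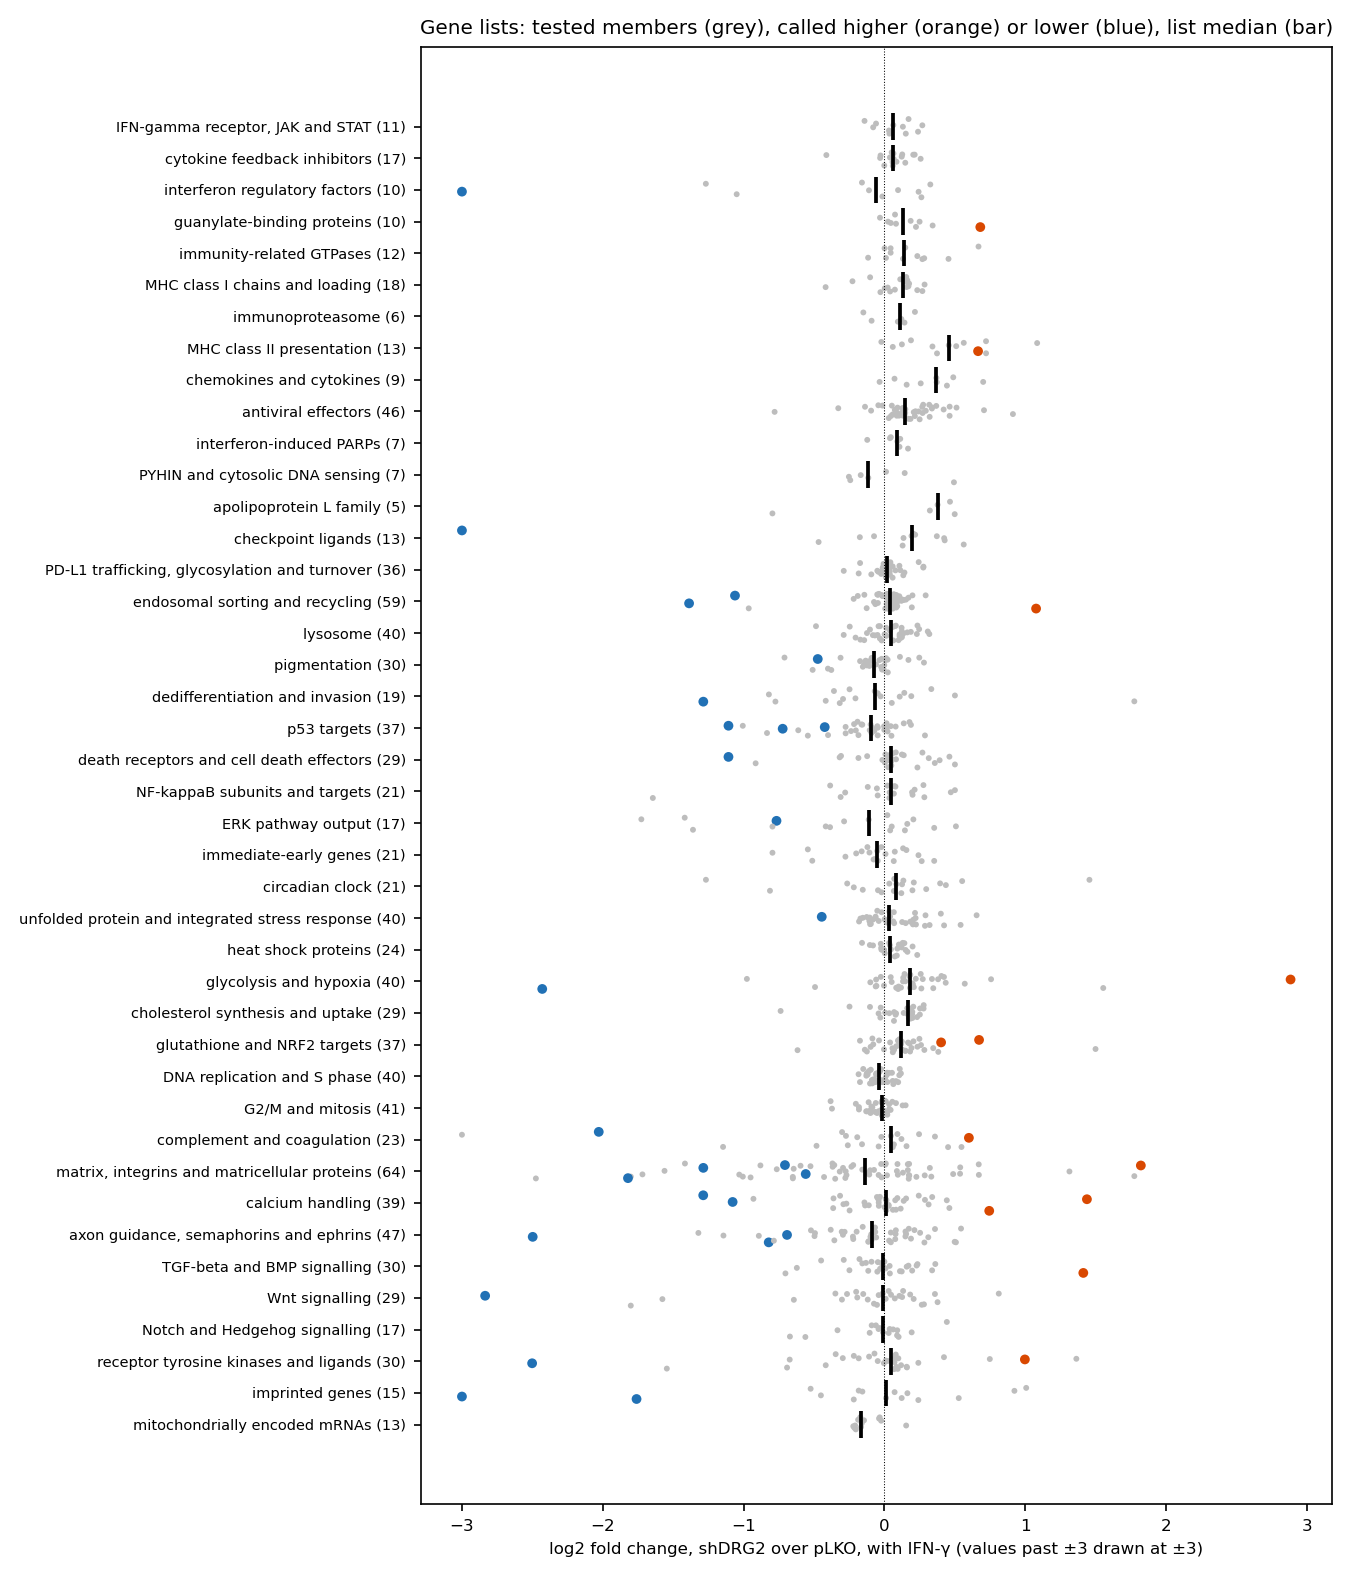
Log2 fold change of shDRG2 over pLKO cells with IFN-γ for the tested members of each gene list (number in brackets), cell type markers and DRG partners left out, with called genes in orange (higher) or blue (lower), the list median as a bar, and values past 3 drawn at 3. Most medians lie within 0.2 of 0; MHC class II presentation (0.46), apolipoprotein L (0.38) and chemokines (0.37) lie highest among the lists drawn, with 1, 0 and 0 called members.

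The same knockdown comparison without IFN-γ, which shares no library with this one, called 162 genes (1.2%). Called in both were 104 genes, 46.0% of the 226 and 64.2% of the 162, and all 104 had the same sign, 36 higher and 68 lower. Of the 122 genes called with IFN-γ and not without, 32 were higher and 90 lower, and 114 had the same sign without IFN-γ. A call under one treatment and not the other does not show that the effects differ. When the difference was tested, 1 gene passed (0.00741%), the pseudogene Gm8226, and 321 had an unadjusted p under 0.05, of which 45 were among the 226.

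**Figure D5:**
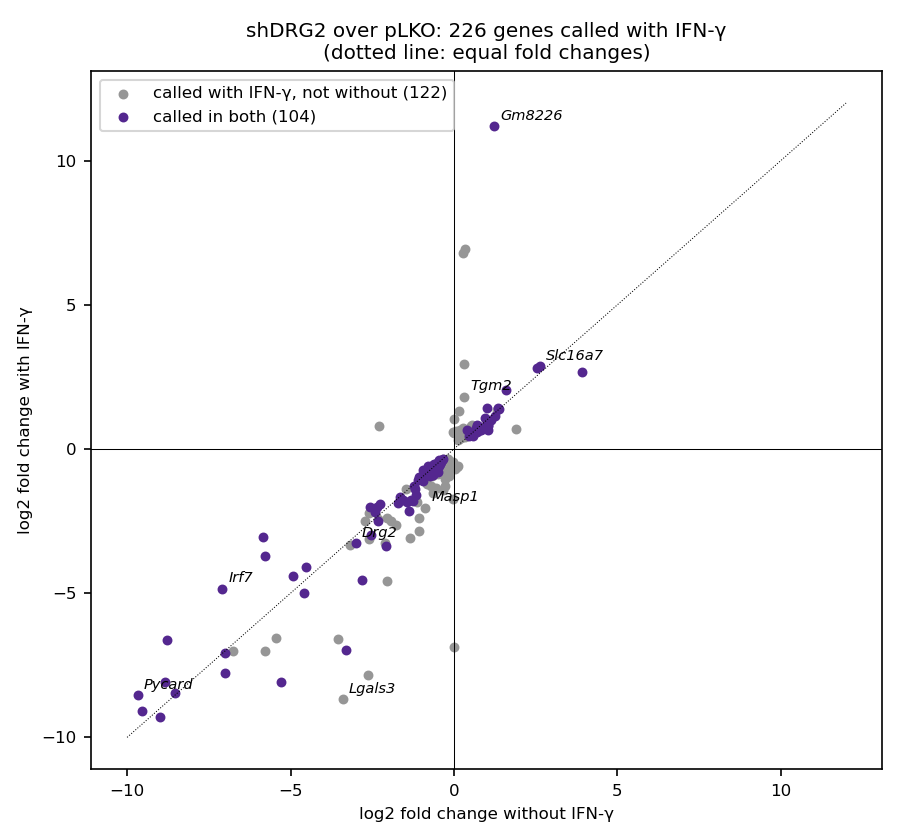
Log2 fold change of shDRG2 over pLKO cells with IFN-γ (vertical) against the same without IFN-γ (horizontal) for the 226 genes called with IFN-γ; the dotted line marks equal values. The 104 genes called under both treatments (purple) all have the same sign on both axes, and Gm8226 lies far above the line.

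Genes that responded to IFN-γ were common among the rises. Of the 68 higher genes 18 (26.5%) were at least 2-fold higher with IFN-γ than without in both lines, against 10 of the 158 lower genes (6.33%) and 5.77% of all tested genes. At least 2-fold lower with IFN-γ in both lines were 4 of the higher genes (5.88%), 21 of the lower genes (13.3%) and 2.54% of all. These shares use the libraries that chose the genes and are a description only. Among the first kind, chosen after their values were seen, Prph, a neuronal intermediate filament gene, was at 441 and 469 CPM in pLKO and 698 and 647 CPM in shDRG2 cells (0.56, SE 0.0835, adjusted p = 0.00995), against at most 0.532 CPM without IFN-γ. Pim1, a kinase gene induced by STAT factors, was at 30.7 and 32.2 against 48.8 and 48.7 CPM (0.63, adjusted p = 0.047), and at 7.21 to 10.1 CPM without IFN-γ. Both groups of these genes were apart with IFN-γ and overlapped without it. Neither the call of Prph nor that of Pim1 held in every alternative.

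Markers of other cell types were low. Epithelial markers summed to at most 0.782 CPM in any library. Endothelial markers summed to 6.38 and 6.27 CPM in pLKO and 7.90 and 7.88 CPM in shDRG2 cells with IFN-γ, with Cdh5, Kdr, Tie1 and Cldn5 at 0 throughout. Fibroblast markers summed to 17.0 and 16.4 CPM against 14.2 and 15 CPM, with Thy1 at 0. The 13 mitochondrially encoded mRNAs, a sign of cell and RNA state, had a median of -0.17 with 1 positive value and no call by edgeR or DESeq2, and no unadjusted p under 0.05.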

How the data were processed

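RNA of B16F10 cells was sequenced by the authors, and the deposited values are estimated counts (expected counts) per gene, not normalised between libraries. The submitters' processing notes name STAR, Salmon 1.5.2 and the mm10 genome. Strandedness, annotation and the tool that summed transcripts to genes were not given in the sources used here. Entries whose names had become dates, 27 of 45583, were left out. Positions and exon overlaps came from GENCODE M21 (GRCm38), which matched 91.8% of names.

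Expected counts were rounded and fitted in R 4.3.3 with edgeR 4.0.16: filterByExpr, TMM scaling, and a quasi-likelihood model with 1 coefficient per group over all 8 libraries (4 residual degrees of freedom, common biological coefficient of variation 8.49%). P-values are two-sided, from the quasi-likelihood F test, adjusted by Benjamini-Hochberg over 13500 genes; a gene is called under 0.05. Fold changes are log2, shDRG2 over pLKO, unless given as folds. Column totals ran from 25422758 to 36654519. The code was tested on simulated data. The 15 alternatives are DESeq2 1.42.0, library size only, upper-quartile scaling, no filter, the replicate block, the 4 IFN-γ libraries alone, the fit without chromosome 14, and leaving out each of 8 libraries.

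Named genes are Drg2, Cd274, the 15 largest called rises and falls with a mean of at least 5 CPM (predicted genes aside), every called member of 48 lists and 12 families, up to 10 called genes with 0 counts in a group, genes called for the difference, and up to 3 abundant members of lists without a call. The genes, lists and rules were chosen with earlier results of these data known. Some genes that this rule names are not reported here.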

Additional observations from a re-analysis of the deposited data

Results flagged for a closer look

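Gm8226, a processed pseudogene on chromosome 9, was the 1 gene whose knockdown effect differed between treatments by the edgeR quasi-likelihood test of the difference. The fitted difference was 9.97 on the log2 scale (adjusted p = 0.00478), a value that depends on the prior count because both pLKO libraries with IFN-γ had 0 counts. Its level was 5.29 and 4.75 CPM in unstimulated pLKO cells, 11.4 and 12.2 CPM in unstimulated shDRG2 cells, and 11.4 and 7.58 CPM in shDRG2 cells with IFN-γ. With IFN-γ it was at least 185-fold higher in shDRG2 than in pLKO cells, with the empty group set to a floor of 3 counts in sum. Sharing of its reads with near copies was not tested.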

How the results depend on the processing

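No called gene changed sign in any of the 15 alternatives, and 23 of 75 named calls and 34 of all 226 calls held in every fit that tested them. Among the fits with more calls, DESeq2 called 115 genes higher with IFN-γ, 312 without IFN-γ, 176 in both and 9 for the difference. With no filter the counts were 653 (249 higher, 404 lower), 678, 331 and 58. The fit with a replicate block gave 675 (221 higher, 454 lower), 673, 355 and 2, and all 226 calls remained. Deviations of same-numbered libraries from their group means correlated at 0.107 to 0.274 over the 6 pairs of groups, all positive. With 2 pairs and no label of a shared batch, whether same-numbered libraries are paired is not known. The main fit treats them as unpaired, and statements of no call above hold for that fit. The block called 7 of 13 MHC class II genes, with Ciita (adjusted p = 0.0155), Cd74 (0.0147) and H2-Aa (0.00674) among them, and also Cxcl10 (0.0121), Cd276 (0.0314) and Mitf (0.00484). It called 3 of 46 antiviral effectors (Mx1, Oasl1 and Samhd1), 3 of 5 apolipoprotein L genes, 4 of 40 lysosome genes, 2 of 21 clock genes, 2 of 29 cholesterol genes, and 1 gene each of the feedback inhibitor, PD-L1 trafficking, G2/M and Notch and Hedgehog lists, all without a call in the fit with no block. Lists with a call in the main fit gained calls too, among them matrix and adhesion (16 of 64) and axon guidance (10 of 47). The block called 7 of 37 p53 targets, 7 of 39 calcium handling genes and 6 of 37 glutathione and NRF2 genes. It also called 5 of 23 complement and coagulation genes and 3 of 30 pigmentation genes, Dct, Mc1r and Mitf. Cd274 (0.166) and Irf1 (0.0918) were not called with the block, nor was any of the receptor, JAK and STAT, immunity-related GTPase, MHC class I, immunoproteasome or S phase genes. The 4 IFN-γ libraries alone gave 124 calls (78 lower), and the fit without chromosome 14 gave 100 lower. Leaving out 1 library gave 44 to 202 calls with IFN-γ (14 to 67 higher, 30 to 135 lower), 27 to 167 without, 22 to 71 in both and 1 to 2 for the difference. The share of lower calls was 61.9% to 73.3%, against 69.9%. With 2 libraries a group, differences under about the intervals printed could not be told from replicate spread. Genes of few counts, such as those under 1 CPM, are limited by counting too. The cause of these changes was not tested, save that leaving out a library or a chromosome tests fewer samples or genes.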
